A study of Mus musculus with 3 samples.

Results

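The matrix metallopeptidases (Mmp) and the tissue inhibitors of metalloproteinases (Timp) were examined in 3 populations of mononuclear phagocytes, lung macrophages (lung Mϕ), lung dendritic cells (lung DC) and peripheral blood monocytes (PBMo). The 10 genes, Mmp8, Mmp9, Mmp12, Mmp13, Mmp14, Mmp19, Mmp25, Timp1, Timp2 and Timp3, were taken by gene symbol from the array annotation, which gave 19087 genes in all. They were covered by 23 probes, 11 of them for Mmp9, 3 for Timp1, 2 for Mmp14 and 1 for each of the other 7 genes. All cells came from untreated wild-type C57BL/6N mice of both sexes, 6 to 9 weeks old. Lung Mϕ and lung DC were CD11c-positive cells from perfused, collagenase-digested lungs and were separated by high and low autofluorescence, whereas PBMo were sorted from blood as CD11b+ CD115+ cells with low side scatter. RNA of 4 mice at a time was pooled and amplified, 32 mice gave 8 pools per cell type, and 12 two-colour arrays, 4 per comparison with balanced dyes, joined the cell types. The sample labels call the macrophages alveolar, although they were prepared from whole lung tissue. Only lung cells went through enzymatic digestion, so that preparation and cell type cannot be told apart in the comparisons with blood.

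Mmp enzymes are zinc-dependent proteases that cut collagens, elastin and other matrix proteins as well as many secreted and surface proteins. Most are secreted as inactive pro-enzymes that need a further cleavage, while some are held at the cell membrane. Timp proteins bind the active site of Mmp enzymes and block it, and macrophages, neutrophils and stromal cells of the lung are known sources of both families.

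The deposited values were log2 ratios, 1 per spot, of lung Mϕ to PBMo (Mϕ/PBMo), of lung DC to PBMo (DC/PBMo) and of lung Mϕ to lung DC (Mϕ/DC). A positive value means more RNA in the population named first. These are contrasts of a single fitted model, and Mϕ/DC equals Mϕ/PBMo minus DC/PBMo. They hold no value of a single pool or array, which left nothing to test with and no error over mice. A gene is therefore called higher with a log2 ratio above 1 and lower with one below -1, which is a difference of more than 2-fold. Levels are not part of the values, so that ratios of a gene were compared between cell types and never levels between genes. In sorted bulk samples, fewer cells of a type and less RNA per cell cannot be told apart. As a guide to the noise of spots, 217 transcripts with at least 8 probes had a median SD over their own probes of 0.050 in Mϕ/PBMo, 0.050 in DC/PBMo and 0.0566 in Mϕ/DC. This does not measure the spread between mice.

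Of the 10 genes 7 passed 2-fold in DC/PBMo, 6 in Mϕ/DC and 4 in Mϕ/PBMo. In lung DC 6 of 10 genes were more than 2-fold higher than in PBMo, Mmp12, Mmp13, Mmp14, Mmp25, Timp2 and Timp3, and 1 was lower, Mmp8. Of all 19087 genes, 4.02% were higher and 1.09% lower in this comparison. In lung Mϕ 2 genes were higher than in PBMo, Mmp12 and Mmp19, and 2 were lower, Mmp8 and Mmp9, while 5.47% of all genes were higher and 4.49% lower. Lung Mϕ against lung DC gave 2 higher genes, Mmp8 and Mmp19, and 4 lower genes, Mmp12, Mmp13, Mmp14 and Mmp25, while 2.74% of all genes were higher and 4.52% lower. The median log2 ratio of the 10 genes was 0.68 in Mϕ/PBMo, 1.13 in DC/PBMo and -0.37 in Mϕ/DC, and the medians of all genes lay between 0.0022 and 0.0027. The 7 Mmp genes had medians of 0.52, 1.63 and -1.26 in these comparisons, and the 3 Timp genes 0.93, 1.13 and -0.20. Of 13 other measured Mmp genes, 0 passed 2-fold in any comparison. The 10 genes were chosen with earlier results of these data known, so their counts and medians describe these genes and not the families. In the order of the cell types, lung DC came first for 7 genes, PBMo for 2 (Mmp8 and Mmp9) and lung Mϕ for 1 (Mmp19). For Timp1, 1 of the 7, this rests on 1 of its 3 probes, and the median over them (0.04 in Mϕ/DC) placed lung Mϕ first. PBMo came last for 8 of the 10 genes.

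**Figure D1:**
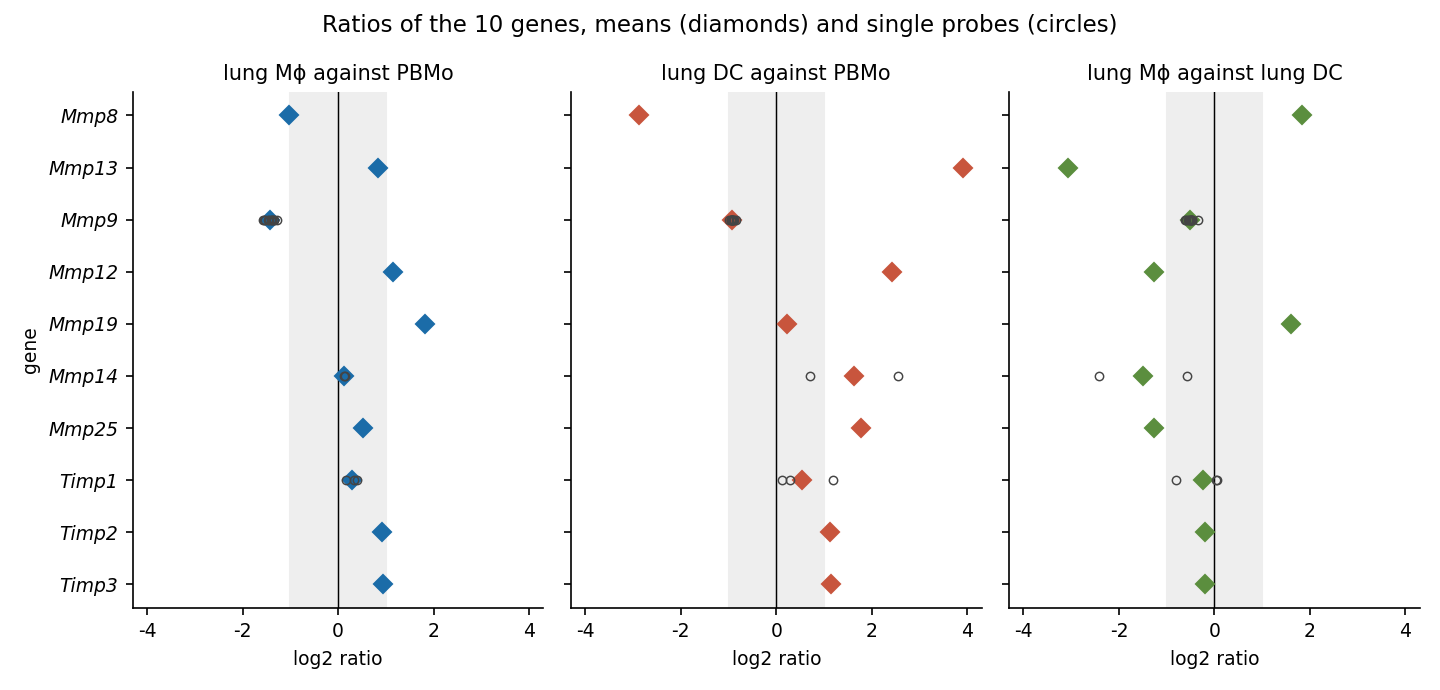
Log2 ratio (horizontal axis) of each of the 10 genes (vertical axis) in the 3 comparisons, lung Mϕ against PBMo (left), lung DC against PBMo (middle) and lung Mϕ against lung DC (right). Diamonds are means over the probes of a gene, open circles are single probes where a gene has more than 1, and the grey band marks ratios within 2-fold. The widest spread lies in lung DC against PBMo, where the ratios run between -2.88 for Mmp8 and 3.91 for Mmp13, and the circles of Mmp14 and Timp1 lie apart.

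Mmp13 and Mmp8, both collagenases that cut fibrillar collagen, had the ratios farthest from 0 of the 10 genes in DC/PBMo, and in opposite directions. Mmp13 had a log2 ratio of 3.91 in DC/PBMo, a 15.1-fold higher signal, and held rank 22 from the top of all genes. In Mϕ/PBMo its log2 ratio was 0.84, which did not pass 2-fold. In lung Mϕ it was 8.40-fold lower than in lung DC (log2 ratio -3.07, rank 59 from the bottom). The order was thus lung DC, lung Mϕ and PBMo, and only the step between lung DC and lung Mϕ passed 2-fold. Mmp8, known as the collagenase of neutrophil granules, had a log2 ratio of -2.88 in DC/PBMo, 7.34-fold lower, and only 7 genes lay below it. In Mϕ/PBMo its log2 ratio was -1.03, 2.05-fold lower and close to the threshold. In lung Mϕ Mmp8 was 3.59-fold higher than in lung DC (log2 ratio 1.84, rank 88 from the top). Its order was PBMo, lung Mϕ and lung DC, the reverse of that of Mmp13, and both steps passed 2-fold.

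Mmp12, the macrophage elastase, was higher in both lung populations. The log2 ratio was 1.16 in Mϕ/PBMo (2.23-fold) and 2.42 in DC/PBMo (5.34-fold, rank 129 from the top). In lung Mϕ the signal was 2.39-fold lower than in lung DC (log2 ratio -1.26). Mmp12 and Mmp8 were the only genes of the 10 for which both steps in the order of the cell types passed 2-fold. Mmp12 stood highest in lung DC and Mmp8 in PBMo.

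Mmp9, the gelatinase of monocytes, macrophages and neutrophils that cuts denatured collagen and collagen type IV, was measured by 11 probes. In Mϕ/PBMo the mean log2 ratio was -1.43 (2.69-fold lower), and the probes lay between -1.57 and -1.28 with an SD of 0.0921. In DC/PBMo the mean was -0.92, a 1.90-fold difference within the threshold, with probes between -0.98 and -0.85 and an SD of 0.0338. The probes therefore had the same sign in both comparisons, and all 11 stayed on the same side of the 2-fold limit in each. Whether these probes differ in sequence or repeat the same one was not examined, so they are not taken as separate evidence. For Mϕ/DC the mean was -0.50, with probes between -0.63 and -0.34 and an SD of 0.0752. PBMo came first, lung DC second and lung Mϕ last, and neither step passed 2-fold on its own.

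Mmp19, a secreted enzyme that cuts components of the basement membrane, was the only gene of the 10 that was highest in lung Mϕ. The log2 ratio was 1.81 against PBMo (3.51-fold, rank 396 from the top) and 1.60 against lung DC (3.02-fold, rank 139 from the top). In DC/PBMo it was 0.22, a 1.16-fold difference.

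Mmp14 and Mmp25 encode enzymes that stay at the cell membrane. Mmp14 (MT1-MMP) spans it and is known to activate pro-Mmp2 together with Timp2, and Mmp25 (MT6-MMP) is anchored by a lipid and known from neutrophils. Mmp25 had log2 ratios of 0.52 in Mϕ/PBMo, 1.77 in DC/PBMo (3.42-fold, rank 268 from the top) and -1.26 in Mϕ/DC (2.39-fold lower). Mmp14 had a mean log2 ratio of 0.13 in Mϕ/PBMo, where its probes gave 0.12 and 0.14. In DC/PBMo the mean was 1.63 (3.09-fold), but the probes gave 0.71 and 2.55, on either side of the threshold. In Mϕ/DC the mean was -1.50 (2.82-fold lower), with probes at -0.57 and -2.42. Both probes placed lung DC first, and the size of the difference depended on the probe. Of 4682 transcripts with 2 probes, 27 (0.577%) had probes at least as far apart as those of Mmp14 in DC/PBMo, where its gap was 1.83 and the median gap was 0.131. In Mϕ/DC the gap was 1.85, and 37 of these transcripts (0.790%) reached it. Where a gene was called only when every probe passed 2-fold, Mmp14 was not called, and the counts became 5 higher genes in DC/PBMo and 3 lower genes in Mϕ/DC.

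The log2 ratios of the inhibitors lay between -0.24 and 1.14 over the 3 comparisons. Timp2, which inhibits Mmp enzymes and takes part in the activation of Mmp2, had log2 ratios of 0.93 in Mϕ/PBMo and 1.13 in DC/PBMo (2.19-fold). Timp3, the inhibitor that binds to the matrix, had almost the same ratios, 0.95 and 1.14 (2.20-fold). Between lung Mϕ and lung DC the log2 ratios were -0.20 for Timp2 and -0.19 for Timp3. Both genes were thus called in lung DC and not in lung Mϕ although the ratios against PBMo differed by a log2 ratio of about 0.2. Timp1, an inducible secreted inhibitor, passed 2-fold in no comparison. Its mean log2 ratios were 0.29 in Mϕ/PBMo, 0.53 in DC/PBMo and -0.24 in Mϕ/DC. Its 3 probes gave 0.16, 0.33 and 0.39 in Mϕ/PBMo, and 0.11, 0.29 and 1.20 in DC/PBMo. Only 1 of the 3 probes therefore passed 2-fold in lung DC, and a range as wide as its 1.09 was seen in 20 of 829 transcripts with 3 probes (2.41%), with a median range of 0.256. In Mϕ/DC the Timp1 probes gave 0.05, 0.04 and -0.81.

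**Figure D2:**
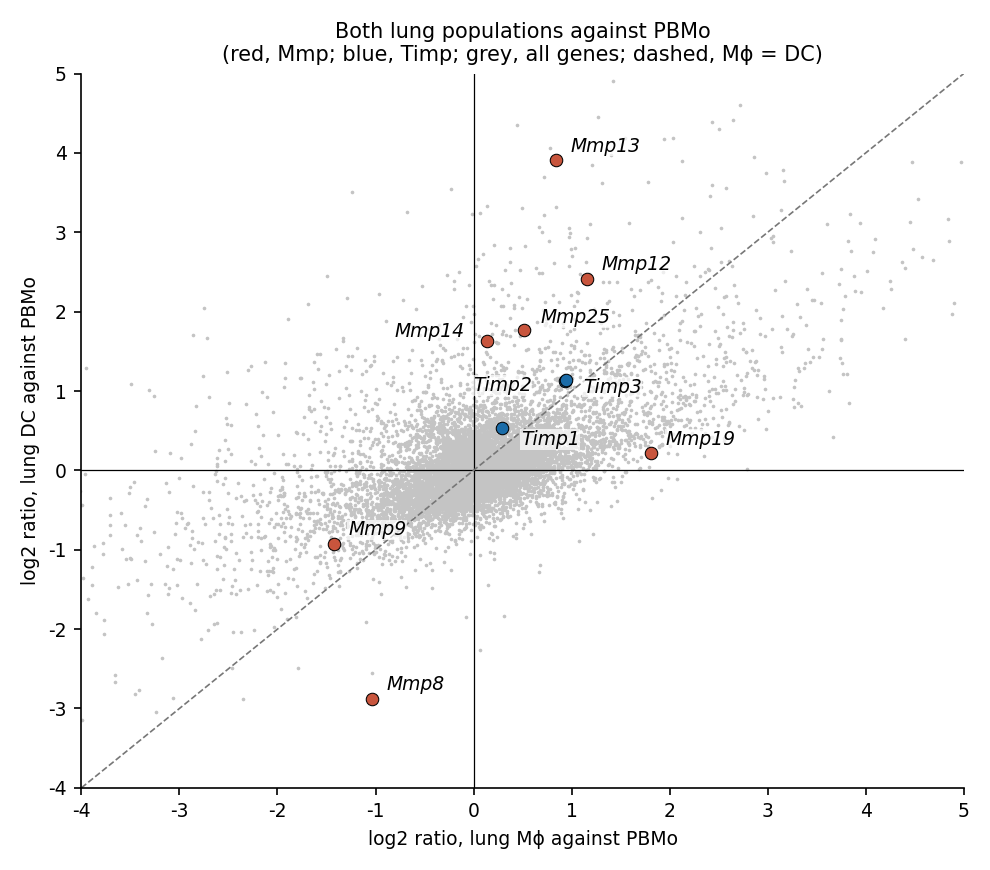
Log2 ratio of lung DC against PBMo (vertical axis) plotted against that of lung Mϕ against PBMo (horizontal axis) for all 19087 genes (grey, 40 genes lie outside the axes), the Mmp genes (red) and the Timp genes (blue, with Timp2 and Timp3 overlapping). On the dashed line lung Mϕ and lung DC do not differ, and Mmp13, Mmp12, Mmp14 and Mmp25 lie above it with log2 ratios of lung Mϕ to lung DC between -3.07 and -1.26, while Mmp19 and Mmp8 lie below it at 1.60 and 1.84.

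In this plane of both ratios against PBMo, the genes closest to each called gene were taken as those with the most similar pattern over the 3 cell types. Mmp8 stood alone, with no gene within a Euclidean distance of 0.25 on the log2 scale. Its nearest gene was Fn1 at 0.318, the matrix protein fibronectin and also one of the monocyte markers. Camp followed at 0.846 and Ngp at 0.963, both granule proteins of neutrophils. Mmp13 had 2 genes within 0.25, the chemokine Ccl4 at 0.161 and the complement subunit C1qb at 0.248, and C1qc followed at 0.299. Mmp12 was closest to Gas6, a ligand of TAM receptors (0.0610), then to Galnt12 (0.0940) and Crem (0.172), and 8 genes lay within 0.25. Mmp25 was closest to the chemokine Ccl22, one of the dendritic cell markers (0.0505), then to Insl6 and Ptprf, and 13 genes lay within 0.25. Mmp14 was closest to Slc4a8 (0.0166), then to Crip2 and Pdgfa, by its mean over probes that differed, with 17 genes within 0.25. Timp2 and Timp3 shared Lmnb1, a subunit of the nuclear lamina, as the nearest gene (0.0461 and 0.0410) and Cldn7 as the third, with Ccn2 between them for Timp2 and Sparc for Timp3, and 45 and 44 genes lay within 0.25. The remaining patterns were common ones, with 48 genes within 0.25 of Mmp9 (Il6ra, Nod1 and Slfn8 nearest) and 31 within 0.25 of Mmp19 (Plgrkt, Mak and Echdc3 nearest).

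Mmp8, Mmp12 and Mmp13 lie in a cluster of Mmp genes on chromosome 9, in the order Mmp13, Mmp12, Mmp1b, Mmp3, Mmp1a, Mmp10, Mmp8, Mmp27, Mmp20 and Mmp7. These 10 genes are all the protein-coding genes that the RefSeq annotation of GRCm38.p6 lists between the ends of the cluster, and 8 of them were measured. Mmp13 and Mmp12 are neighbours and were both higher in lung DC, whereas Mmp8 was lower in both lung populations. The other 5 measured genes, Mmp3, Mmp1a, Mmp10, Mmp20 and Mmp7, had no log2 ratio against PBMo beyond 0.29 in either direction.

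**Figure D3:**
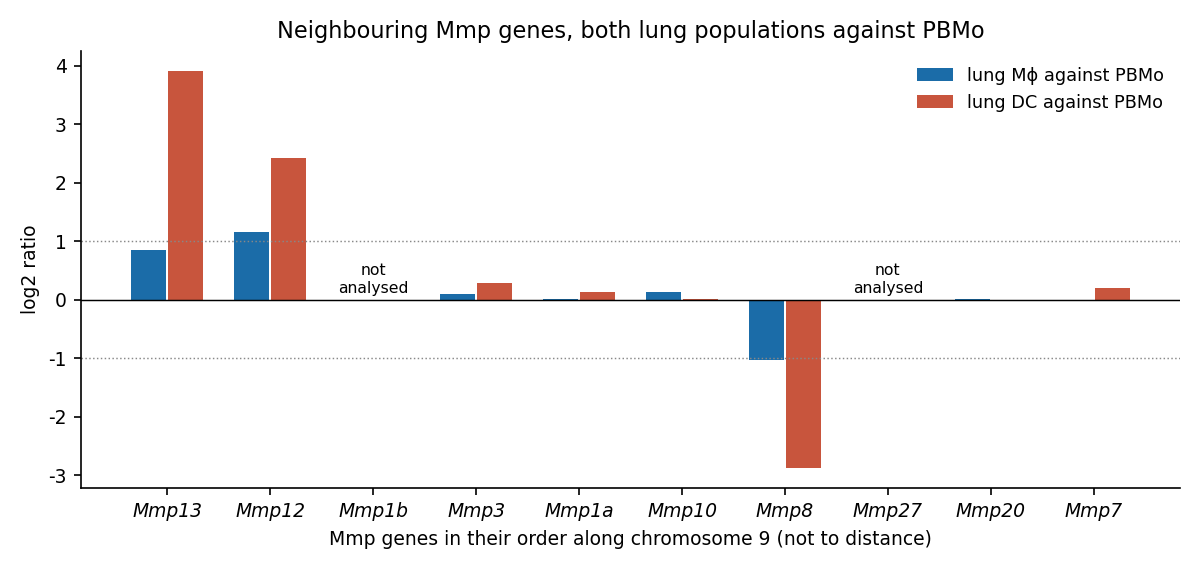
Log2 ratio (vertical axis) of the Mmp genes of the chromosome 9 cluster in their order along the chromosome (horizontal axis, not to distance) for lung Mϕ against PBMo (blue) and lung DC against PBMo (red). Bars start at 0, the dotted lines mark 2-fold, and no error can be given. The bars of Mmp13 and Mmp12 point up, to 3.91 and 2.42 in lung DC, those of Mmp8 point down, to -2.88 in lung DC, and those of the 5 other measured genes stay within 0.29.

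Since these 3 genes of the cluster differed in opposite directions, the 250 bases before each of their annotated starts are shown, from the RefSeq promoter table of GRCm38.p6. All lie on the plus strand, Mmp13 at chr9:7272264-7272513, Mmp12 with 2 starts at chr9:7344147-7344396 and chr9:7347124-7347373, and Mmp8 at chr9:7558179-7558428. Capitals mark matches to the AP-1 motif TGAGTCA, searched on both strands (TGACTCA is its reverse complement), and to the TATA motif TATAAA, searched on the strand of the gene. No matches of these motifs overlapped in the windows shown.
Mmp13: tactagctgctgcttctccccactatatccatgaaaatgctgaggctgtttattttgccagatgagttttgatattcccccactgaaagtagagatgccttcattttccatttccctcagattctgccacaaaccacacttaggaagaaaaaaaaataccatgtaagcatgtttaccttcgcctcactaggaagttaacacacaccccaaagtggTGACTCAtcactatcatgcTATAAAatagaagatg
Mmp12, first start: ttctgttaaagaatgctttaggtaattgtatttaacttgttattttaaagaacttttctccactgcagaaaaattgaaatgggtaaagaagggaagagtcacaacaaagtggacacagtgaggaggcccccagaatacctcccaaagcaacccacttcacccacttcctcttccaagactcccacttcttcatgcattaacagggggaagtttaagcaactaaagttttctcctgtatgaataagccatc
Mmp12, second start: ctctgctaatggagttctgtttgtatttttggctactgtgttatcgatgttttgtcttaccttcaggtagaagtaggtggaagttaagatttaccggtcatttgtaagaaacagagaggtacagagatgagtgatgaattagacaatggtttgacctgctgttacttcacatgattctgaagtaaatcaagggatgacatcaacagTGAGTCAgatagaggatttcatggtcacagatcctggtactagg
Mmp8: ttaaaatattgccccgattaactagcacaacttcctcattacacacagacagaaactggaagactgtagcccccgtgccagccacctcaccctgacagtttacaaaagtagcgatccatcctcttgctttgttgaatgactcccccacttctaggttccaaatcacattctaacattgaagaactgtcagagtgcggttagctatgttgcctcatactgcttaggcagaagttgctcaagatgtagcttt
In Mmp13 the AP-1 motif began 35 bases and the TATA motif 16 bases before the start. At the second start of Mmp12 an AP-1 motif began 44 bases before it, and the window of Mmp8 held neither motif. The table held 9 windows for 8 of the 10 genes. The AP-1 motif was found in 2 of these 9 windows, those of Mmp13 and Mmp12, and in 4.46% of 32851 windows of the same length over all genes. The TATA motif was found in 1 of the 9 and in 7.59% of all windows. The motif AGGAAG, bound by Ets factors, searched on both strands and not marked in the sequences, was found in 7 of the 9 and in 29.5% of all windows. The windows of these 3 genes had a GC content between 39.6% and 44.8%, and the median of all windows was 52.4%. Such matches describe the letters of the windows and do not show binding. Of 11 genes of AP-1 subunits, 2 were higher in Mϕ/PBMo and 2 lower, while 4 were higher in DC/PBMo and none lower. Of all genes, 5.47% were higher and 4.49% lower in Mϕ/PBMo, and 4.02% and 1.09% in DC/PBMo. Fosb had log2 ratios of 3.03 in Mϕ/PBMo and 2.93 in DC/PBMo, and Jun 2.66 and 2.33. Fos had -0.21 in Mϕ/PBMo and -0.52 in DC/PBMo.

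The other genes of the metallopeptidase system were counted in the same way. Of all genes, 5.47% were higher and 4.49% lower in Mϕ/PBMo, 4.02% and 1.09% in DC/PBMo, and 2.74% and 4.52% in Mϕ/DC. Of 16 further Mmp genes 13 were measured, and 0 passed 2-fold in any of the 3 comparisons. The ratio farthest from 0 was 0.84 for Mmp23 in DC/PBMo, and the gelatinase Mmp2 had 0.19 in Mϕ/PBMo and 0.17 in DC/PBMo. Of 6 further inhibitors or Mmp-binding proteins, including Timp4, Reck and A2m, 1 passed 2-fold, Pcolce, which enhances the processing of procollagen, with a log2 ratio of 1.08 in DC/PBMo. Of 13 measured genes of the plasminogen system, proprotein convertases and other proteases that can activate Mmp enzymes, 1 passed 2-fold in each comparison with PBMo, Cma1 with -1.56 in lung Mϕ and Klk1 with 1.03 in lung DC. The urokinase Plau had 0.57 in Mϕ/PBMo and 0.84 in DC/PBMo, and the convertase Furin 0.87 and 0.31.

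Genes of binding partners and of substrates had ratios against PBMo between -2.71 and 3.05. Of 17 genes of proteins that bind or clear Mmp and Timp proteins, most of them at the cell surface, 3 were higher and 3 lower in Mϕ/PBMo. Higher were the tetraspanin Cd63, a binding partner of Timp1, at 3.05, the tetraspanin Cd151 at 1.44 and the hyaluronan receptor Cd44, a docking site of Mmp9, at 1.13. Lower were the secreted thrombospondin Thbs1 at -2.71, integrin Itgb3 at -2.25 and syndecan Sdc1 at -1.04. In DC/PBMo Cd63 was higher at 2.88 and Sdc4 at 1.91, and Thbs1 lower at -2.01. Mϕ/DC gave 2 higher genes, Cd151 and Cd44, and 2 lower genes, Itgb3 and Sdc4. Of 21 measured genes of matrix proteins that Mmp enzymes cut, Fn1 was lower in lung Mϕ at -1.04 and in lung DC at -2.56 against PBMo. Col1a1, the alpha-1 chain of collagen type I, was higher in lung DC at 1.30 and had 0.98 in lung Mϕ. Nid1, a linker protein of the basement membrane, was higher in lung DC at 1.23. In all, 70 of 78 further genes of the system were measured, of which 3 were higher and 5 lower in Mϕ/PBMo and 6 higher and 2 lower in DC/PBMo. Of all 19087 genes, 5.47% were higher and 4.49% lower in Mϕ/PBMo, 4.02% and 1.09% in DC/PBMo, and 2.74% and 4.52% in Mϕ/DC. Mϕ/DC gave 3 higher and 4 lower genes, and the median log2 ratios of the 70 genes were 0.05, 0.09 and -0.05 in these comparisons.

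Markers of the sorted cells and of other cell types were set beside the 10 genes. Over the 3 comparisons, the share of all genes called higher and the share called lower, each taken alone, lay between 1.09% and 5.47%. In Mϕ/DC the markers of both lung populations mostly went in the direction of the labels. Of the alveolar macrophage markers, 16 of 16 measured were higher in Mϕ/PBMo (median log2 ratio 4.25) and 14 in Mϕ/DC. In DC/PBMo 12 of these 16 were higher as well, with a median of 2.12, above the median of 1.78 of the dendritic cell markers. Lung DC thus carried macrophage markers too, and the part of macrophage RNA in the lung DC ratios was not tested. Of 19 dendritic cell markers 13 were called higher in DC/PBMo, and 17 lower in Mϕ/DC. Of 15 monocyte markers, 14 were lower in Mϕ/PBMo and 9 in DC/PBMo. In Mϕ/DC the 4 lower genes, Mmp12, Mmp13, Mmp14 and Mmp25, shared their sign with the dendritic cell markers (median -1.86), but also with 11 of the 15 monocyte markers (median -1.79) and 13 of 16 markers of NK, T and B cells (median -2.83). The 2 higher genes, Mmp8 and Mmp19, shared their sign with the macrophage markers (median 1.92). In Mϕ/PBMo, however, Mmp8 was lower at -1.03, while all 16 macrophage markers were higher.

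Of 16 neutrophil markers 9 were lower in Mϕ/PBMo and 2 higher (Fpr2 and Mcemp1), with a median of -1.09 and a range of -5.24 to 2.35. In lung DC 9 were lower than in PBMo and none higher, with a median of -1.11 and a range of -3.11 to 0.18. S100a9 had -5.24 in Mϕ/PBMo and -3.11 in DC/PBMo, S100a8 -2.35 and -2.88, and Camp -1.79 and -2.49. The granule enzymes Elane and Mpo had -0.08 and -0.04 in Mϕ/PBMo and -0.15 and -0.06 in DC/PBMo. In Mϕ/PBMo Mmp8 and Mmp9 were lower like these 9 markers, and in DC/PBMo Mmp8 was lower while Mmp9 had -0.92, within 2-fold. Mmp25, also known from neutrophils, had 0.52 in Mϕ/PBMo and was higher in DC/PBMo at 1.77. Monocyte markers were lower as well, 14 of 15 in Mϕ/PBMo and 9 in DC/PBMo, and none was higher. In DC/PBMo F13a1 had -5.70, Ly6c2 -2.58, Plac8 -2.57 and Fn1 -2.56. S100a8 and S100a9 are also made by monocytes. PBMo were gated on low side scatter and CD115, and the sort is described as highly pure. The part of neutrophil RNA in the ratios of Mmp8 and Mmp9 was not tested.

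Of 23 markers of fibroblasts, epithelium and endothelium, cells known to make Timp2 and Timp3, 5 were higher and 1 lower in Mϕ/PBMo (median 0.49, range -1.50 to 3.20), and 7 were higher and none lower in DC/PBMo (median 0.61, range -0.46 to 3.65). The surfactant gene Sftpc had 3.16 in Mϕ/PBMo and 3.65 in DC/PBMo, and the epithelial cadherin Cdh1 3.20 and 1.79. Of the collagens of fibroblasts, Col1a1 had 0.98 in Mϕ/PBMo and was higher in DC/PBMo at 1.30, Col1a2 had 0.49 and 0.72, and Col3a1 0.37 and 0.51. Of the other stromal markers, Pdgfra had 0.17 and 0.19, Dcn 0.17 and 0.16, and Lum 0.14 and 0.11. Pdgfrb had -1.50 and -0.07, and Acta2 -0.51 and -0.46. Of 16 markers of NK, T and B cells, 11 were lower in Mϕ/PBMo and none higher. In DC/PBMo 8 of these 16 were higher and none lower, with a median of 0.95. Farthest from 0 were Klra7 at -3.95 and Cd79b at -3.71 in Mϕ/PBMo, and Cd8b1 at 3.51 and Cd3d at 1.88 in DC/PBMo. The sorted cells are described as highly pure, with surface markers of T, B and NK cells not seen by flow cytometry. Whether RNA of other cells had a part in the ratios of the 10 genes was not tested.

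**Figure D4:**
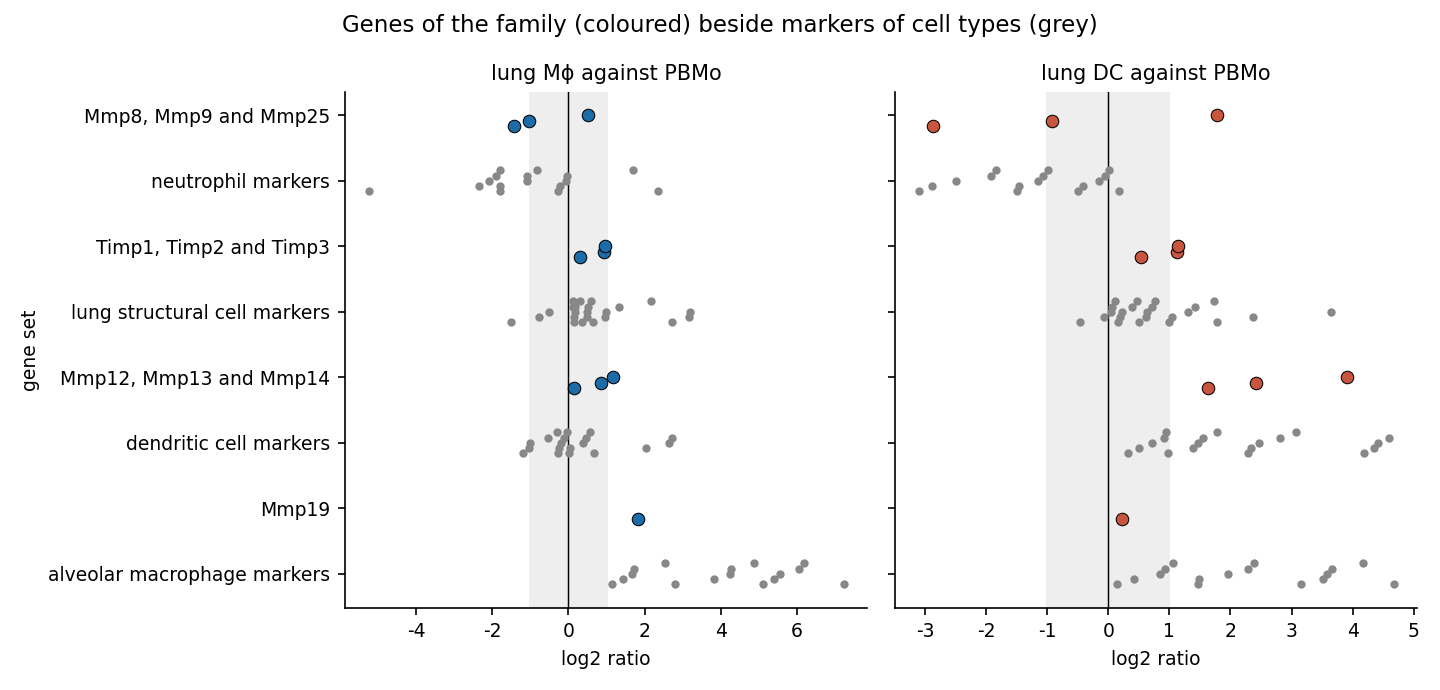
Log2 ratio (horizontal axis) of the 10 genes (coloured circles) and of marker genes of neutrophils, lung structural cells, dendritic cells and alveolar macrophages (small grey circles), by gene set (vertical axis), for lung Mϕ against PBMo and lung DC against PBMo. The grey band marks ratios within 2-fold, and the scales of the panels differ. In lung DC against PBMo, Mmp8 at -2.88 lies within the range of the neutrophil markers, -3.11 to 0.18, and Mmp25 at 1.77 lies outside it. Monocyte markers, with a range of -5.70 to -0.25 in this comparison, are not shown.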

How the data were processed

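RNA of lung Mϕ, lung DC and PBMo was compared on two-colour Agilent whole mouse genome arrays. The authors scanned them with GenePix, weighted spots by intensity, homogeneity and saturation, corrected for local background after Edwards, adding a constant, normalized by LOESS and fitted a limma model (version not stated) to all arrays. The deposited log2 ratios are its 3 contrasts, 1 value per spot (45220 spots), used as deposited. No column lay outside the samples. Column medians over spots were -0.00247, -0.00502 and 0.00507. The ring closed in every spot (largest deviation 1.07e-14), so that a refit leaves no residual and no test was possible. The number of arrays limits the precision, which could not be estimated, and signal over background was not analysed here.

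The row order of the table did not follow the probe numbers of the annotation. It was recovered from the values, after these were seen, as 1 of 32 layouts of rows and columns in which probes of the same transcript are most alike. The share of variance between 5899 transcripts was 0.907 in this layout, 0.413 in the next, 0.389 with row numbers taken as probe numbers and 0.404 in random order. Chosen on 2949 transcripts, the same layout gave 0.911 on the 2950 left out. Of the annotated probes 33653 had 1 symbol, 56 with several were left out, and 11511 spots were not listed. A gene is the mean of its probes, and 10744 of 19087 genes had 1 probe. The computation was tested on simulated data.

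The 10 genes and the 13 pathway and marker lists were chosen with earlier results of these data known. Named genes are the 10 genes, up to 4 genes per list with ratios farthest from 0 in the comparison discussed, and the 3 nearest genes of each called gene by Euclidean distance. Outside this rule, after their values had been seen, A2m, Fos, Elane, Mpo, Col1a1 and the other collagens of fibroblasts were named for their roles. The stromal markers Pdgfra, Pdgfrb, Dcn, Lum and Acta2 were named beside the collagens, and Cd44, Sdc1 and Mcemp1 because all genes of a count were listed. Alternatives were the probe with the largest ratio, the median over probes, centred columns, NM_ accessions only, every probe past the threshold, and 1.5-fold and 4-fold limits. Promoter windows come from RefSeq (GRCm38.p6). The study's qRT-PCR and cytometry results were not used. Python 3.11.15, numpy 2.4.6, pandas 2.3.3 and matplotlib 3.10.9 were used.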

Additional observations from a re-analysis of the deposited data

Results flagged for a closer look

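Cma1, the chymase of mast cells and a possible activator of pro-Mmp enzymes, differed in sign between the lung populations. Its log2 ratio was -1.56 in Mϕ/PBMo and 0.55 in DC/PBMo, which gave -2.11 for Mϕ/DC. Its 2 probes gave -2.16 and -0.95 in Mϕ/PBMo, and 0.65 and 0.46 in DC/PBMo. Klk1, a tissue kallikrein, had log2 ratios of -0.04 in Mϕ/PBMo and 1.03 in DC/PBMo, which gave -1.07 for Mϕ/DC. Of its 2 probes, 1 passed 2-fold in DC/PBMo (1.51) and the other did not (0.55). In both genes the difference between the lung populations was not tested, since the table holds no replicate values.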

How the results depend on the processing

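Of 120 recomputed ratios of the 10 genes, 115 moved by less than the spread between probes, but many of them could not move. For the 7 genes with 1 probe, the choice of probes cannot change the ratio. Their spread was taken as the median SD of transcripts with at least 8 probes. The NM_ alternative kept every probe of the 10 genes, and centring shifted a ratio only by its column median. The count of 115 is therefore no measure of stability. Direction changed only for Timp1 in Mϕ/DC, which passed 2-fold in neither case, with 0.04 by the median over its probes and -0.24 by their mean. With the probe of the largest ratio in place of the mean, Mmp9 had log2 ratios of -1.57 in Mϕ/PBMo, -0.98 in DC/PBMo and -0.63 in Mϕ/DC, and Timp1 had 1.20 in DC/PBMo, past 2-fold, and -0.81 in Mϕ/DC. Mmp14 moved further than Mmp9, from 1.63 to 2.55 in DC/PBMo and from -1.50 to -2.42 in Mϕ/DC. Both shifts of Mmp14 lay within the wide spread of its own probes and so count among the 115. With a 1.5-fold limit, 5 of the 10 genes were higher in Mϕ/PBMo and 2 lower in DC/PBMo. With a 4-fold limit, 0 were higher and 0 lower in Mϕ/PBMo, 2 were higher in DC/PBMo, and 0 were higher and 1 lower in Mϕ/DC. The share of all genes was taken only at 2-fold with means over probes. Counts at other limits therefore have no share to be set against. Without Mmp8, Mmp9 and Mmp25, a choice made after seeing the data, 0 were lower in Mϕ/PBMo, 0 lower in DC/PBMo, and 1 was higher in Mϕ/DC. These counts follow from the choice, since Mmp8 and Mmp9 were the only lower genes against PBMo.

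Of the 70 further genes of the system, with the probe of the largest ratio 7 were higher in Mϕ/PBMo and 11 in DC/PBMo. With a 1.5-fold limit 8 were higher in Mϕ/PBMo and 13 in DC/PBMo, and 8 lower in Mϕ/DC. With a 4-fold limit 1 was higher and 2 lower in Mϕ/PBMo, 1 was higher in DC/PBMo, and 0 were higher and 2 lower in Mϕ/DC. Of the alternatives added after seeing the data, NM_ accessions only gave 5 higher in Mϕ/PBMo, and every probe past 2-fold gave 2 lower in Mϕ/PBMo and 2 lower in Mϕ/DC. For these counts, too, no share of all genes under the same alternative is at hand.

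No paired analysis was possible because the table holds fitted contrasts and no value per pool or array, and for the same reason no leave-one-out of arrays was run. Of the 10 genes 7 rest on 1 probe, and the signal over background of their spots is unknown.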
